A study of Bos taurus with 16 samples.

Results

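The 5 bovine loci described here, of 44265 features counted, each split the calves into a high and a low set in adipose and again in muscle. The loci are ENSBTAG00000032057 (merged locus XLOC_029308), ENSBTAG00000014707 (XLOC_011521), ENSBTAG00000006383 (XLOC_041397), ENSBTAG00000032150 (XLOC_032874) and ENSBTAG00000040367 (XLOC_018167), and all 5 were found in all 16 libraries. They were selected on these same measured levels, as loci whose high and low calves did not follow the treatment, so the division, its size and its place across the treatment groups are a description and were not tested. The deposited counts and the reference gene table used here pair no gene name, position or sequence with these identifiers, so the loci are called by identifier and nothing is said of what they encode.

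The samples were subcutaneous adipose and gluteus medius muscle of Holstein bull calves, 21 d old at the start and fed milk replacer for 10 d. The 4 CON calves (1 to 4) received saline with the milk replacer, and the 4 5-HTP-supplemented calves (5 to 8) received 5-hydroxytryptophan, the immediate precursor of serotonin. Each tissue of each calf gave 1 library of polyadenylated RNA, and libraries of both tissues with the same number were taken as the same calf, which the labels do not state in words.

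Subcutaneous adipose holds lipid-storing adipocytes beside stromal, vascular and immune cells, and gluteus medius is a skeletal muscle of the hip built mainly of multinucleate fibers. The tissues of 1 animal share a genome, a circulation and a rearing history, whereas each has its own program of gene expression. A transcript whose level differs between animals in several tissues at once can therefore be read against the animal as well as against the tissue.

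Library totals ranged from 17289845 to 28649548 counts. Levels are in CPM, the counts scaled by library size, with TMM normalization (the trimmed mean of M-values of edgeR) taken over all 16 libraries, and 3 counts, the smallest amount taken as seen, were worth 0.0818 to 0.125 CPM in adipose and 0.146 to 0.22 CPM in muscle. This floor covers counting error only. The muscle genes TTN, the giant spring protein of the sarcomere, and IGFN1, a muscle protein of the immunoglobulin-like and fibronectin family, lay at no more than 0.302 CPM in every adipose library and at 19.5 CPM or more in every muscle library. TTN was read at the merged locus XLOC_017327, which the paper names TTN but which carries no Ensembl identifier. Whether that locus holds the whole gene was not tested. No defining gene of adipocytes could be looked up by name. In bulk tissue, fewer cells of a type and less RNA per cell cannot be told apart.

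In each tissue the 8 values of a locus were sorted as log2(CPM + 0.1), and the calves were divided at the widest gap that left at least 2 calves on either side. Sets divided in this way cannot overlap at any feature. The 4 loci other than ENSBTAG00000014707 had the same calves in the high set in both tissues, with a gap of 2.5 to 4.52 log2 units between the lowest high calf and the highest low calf. ENSBTAG00000014707 had narrower gaps and put 7 of 8 calves on the same side in both tissues. No member was at 0 in any library, but at ENSBTAG00000032057 and ENSBTAG00000032150 the low libraries held only 3 to 17 counts. Whether the counts of the low libraries came from the locus itself was not tested at any member.

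**Figure D1:**
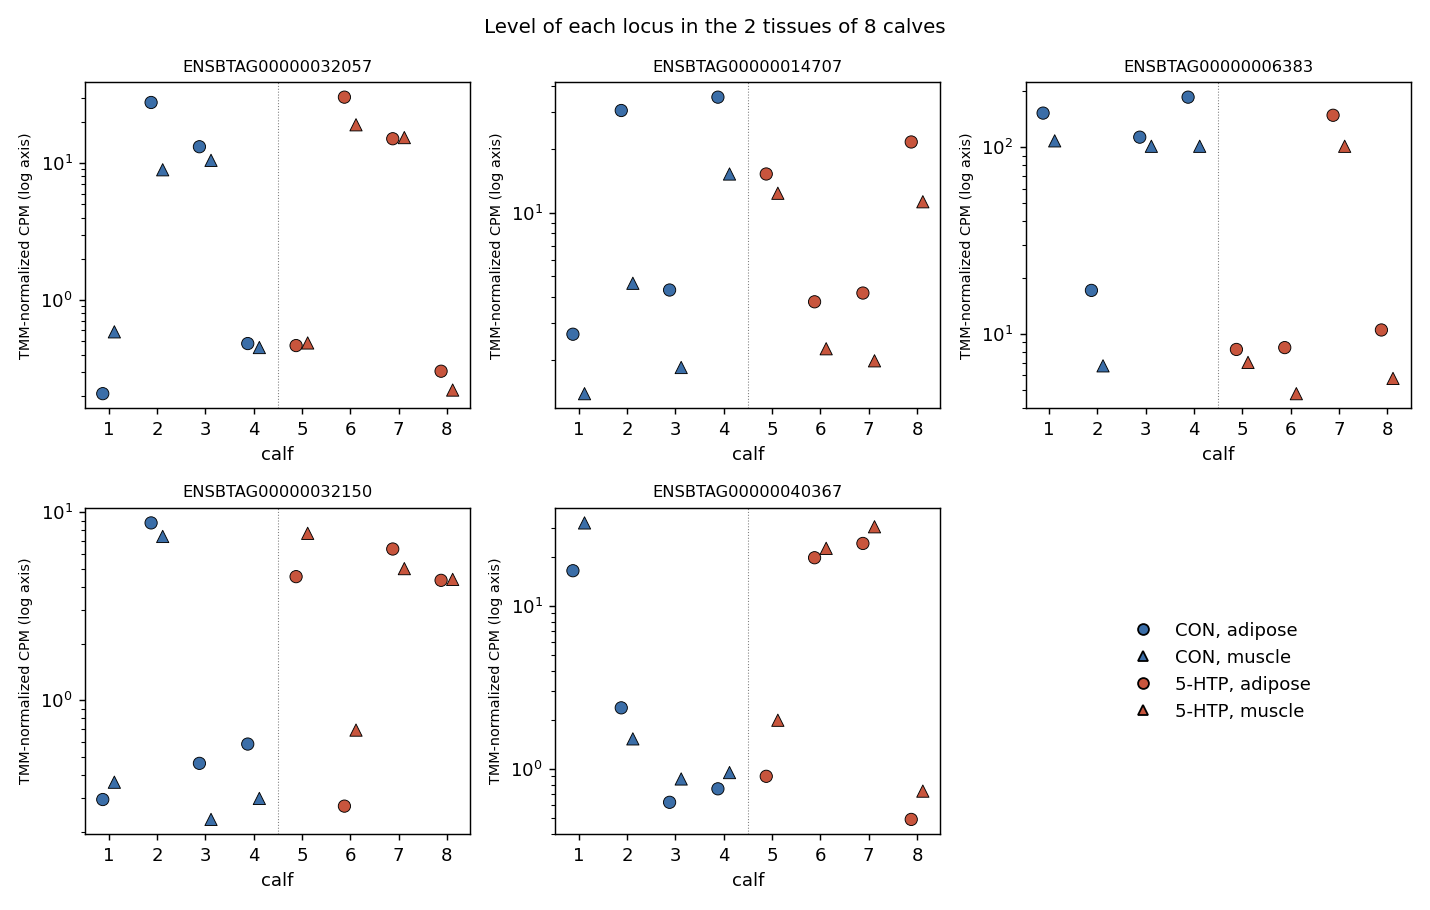
Level of each of the 5 loci, in TMM-normalized CPM on a log axis, against calf number, with circles for adipose and triangles for muscle and color for treatment. Each point is 1 library, and circle and triangle of a calf lie together in the upper or the lower band in every panel except calf 2 at ENSBTAG00000014707, where adipose was at 30.6 CPM and muscle at 4.64 CPM.

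ENSBTAG00000032057 had the largest ratio between its sets of the 5 loci in both tissues. In adipose, the high calves 2, 3, 6 and 7 had 27.8, 13.2, 30.4 and 15.1 CPM. The low calves 1, 4, 5 and 8 had 0.207, 0.481, 0.465 and 0.302 CPM. Each set held 2 CON and 2 5-HTP-supplemented calves.

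In muscle, the same calves 2, 3, 6 and 7 were high at ENSBTAG00000032057, with 8.96, 10.5, 19.1 and 15.4 CPM. Calves 1, 4, 5 and 8 were low with 0.586, 0.45, 0.486 and 0.22 CPM. The mean of the high set was 21.6 ± 8.74 CPM in adipose and 13.5 ± 4.66 CPM in muscle (SD, n = 4), against 0.364 ± 0.132 and 0.435 ± 0.155 CPM in the low set (SD, n = 4). The ratio of means was therefore 59.5 in adipose and 31 in muscle, and the gap was 4.52 and 3.72 log2 units. The low libraries held 7 to 17 counts in adipose and 3 to 10 in muscle, so the low level was measured with few counts, and muscle of calf 8 was at the floor of 3 counts.

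At ENSBTAG00000006383 the low calves also had counts well above the floor. The high calves 1, 3, 4 and 7 had 152, 113, 185 and 148 CPM in adipose. Calves 2, 5, 6 and 8 had 17.1, 8.26, 8.45 and 10.5 CPM. The division held 3 CON calves and 1 5-HTP-supplemented calf on the high side.

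Muscle divided the calves in the same way at ENSBTAG00000006383. The high calves 1, 3, 4 and 7 had 108, 101, 101 and 101 CPM, a coefficient of variation of 3.57%, against 19.5% among the same calves in adipose. The low calves 2, 5, 6 and 8 had 6.75, 7.04, 4.79 and 5.78 CPM. The ratio of means was 13.5 in adipose (150 ± 29.1 against 11.1 ± 4.13 CPM, SD, n = 4) and 16.8 in muscle (103 ± 3.66 against 6.09 ± 1.02 CPM, SD, n = 4). The gap was 2.72 log2 units in adipose and 3.82 in muscle. Low libraries held 279 to 411 counts in adipose and 76 to 145 in muscle.

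At ENSBTAG00000032150, calves 2, 5, 7 and 8 were high in adipose with 8.77, 4.54, 6.37 and 4.34 CPM. Calves 1, 3, 4 and 6 were low with 0.296, 0.461, 0.584 and 0.273 CPM. The high set held 1 CON calf and 3 5-HTP-supplemented calves.

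Muscle levels of ENSBTAG00000032150 in the high calves 2, 5, 7 and 8 were 7.43, 7.72, 5.01 and 4.39 CPM. The low calves 1, 3, 4 and 6 had 0.366, 0.232, 0.3 and 0.693 CPM. The levels on each side were nearly the same in both tissues. The high means were 6.01 ± 2.05 CPM in adipose and 6.14 ± 1.69 CPM in muscle (SD, n = 4). The low means were 0.403 ± 0.147 and 0.398 ± 0.204 CPM (SD, n = 4). The ratio of means was 14.9 and 15.4, and the gap 2.7 and 2.5 log2 units. The low libraries held 10 to 17 counts in adipose and 4 to 11 in muscle.

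ENSBTAG00000040367 had the smallest high set among the 4 loci divided alike, calves 1, 6 and 7, with 16.4, 19.7 and 24.1 CPM in adipose. The low calves 2, 3, 4, 5 and 8 had 2.37, 0.625, 0.756, 0.902 and 0.491 CPM. Calf 2 stood highest on the low side and set the width of the gap.

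In muscle, calves 1, 6 and 7 had 32.2, 22.5 and 30.5 CPM at ENSBTAG00000040367. Calves 2, 3, 4, 5 and 8 had 1.53, 0.869, 0.951, 1.99 and 0.732 CPM. The high mean was 20.1 ± 3.9 CPM in adipose and 28.4 ± 5.16 CPM in muscle (SD, n = 3), against 1.03 ± 0.764 and 1.21 ± 0.53 CPM (SD, n = 5), a ratio of 19.5 and 23.4. The gap was 2.74 and 3.43 log2 units, and 1 CON calf and 2 5-HTP-supplemented calves were high.

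ENSBTAG00000014707 had the narrowest division. Calves 2, 4, 5 and 8 were high in adipose with 30.6, 35.4, 15.3 and 21.7 CPM. Calves 1, 3, 6 and 7 were low with 2.66, 4.31, 3.79 and 4.17 CPM, a ratio of means of 6.9 and a gap of 1.8 log2 units. Low libraries held 90 to 146 counts, well above the floor.

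In muscle, the widest gap at ENSBTAG00000014707 set apart calves 4, 5 and 8, with 15.3, 12.4 and 11.3 CPM. Calves 1, 3, 6 and 7 had 1.39, 1.85, 2.27 and 1.99 CPM. Calf 2, high in adipose, lay between these with 4.64 CPM, 88 counts. The gap in muscle was 1.27 log2 units with calf 2 counted as low and 2.27 with calf 2 left out. Divided at the calves of adipose, the ratio of means in muscle was 5.82 and the gap was 1 log2 unit, so that calf 2 still lay above all 4 low calves.

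Over all features, 17232 had at least 10 counts in at least 2 libraries of each tissue, and all 5 members were among them. A gap of at least 2 log2 units was seen for 48 features in adipose, 50 in muscle and 26 in both. The high set was the same calves in both tissues for 22 of these 26, that is 0.128% of the features considered, and 4 of the 22 were members. Because the members were selected for this division, their number is no result. The 2 features just inside the limit had smaller gaps of 2.29 and 2.2 log2 units, and the 2 just outside had 1.99 and 1.98. The median of the widest gap over all features considered was 0.27 log2 units in adipose and 0.24 in muscle, and over the 5 members it was 2.72 and 3.43.

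**Figure D2:**
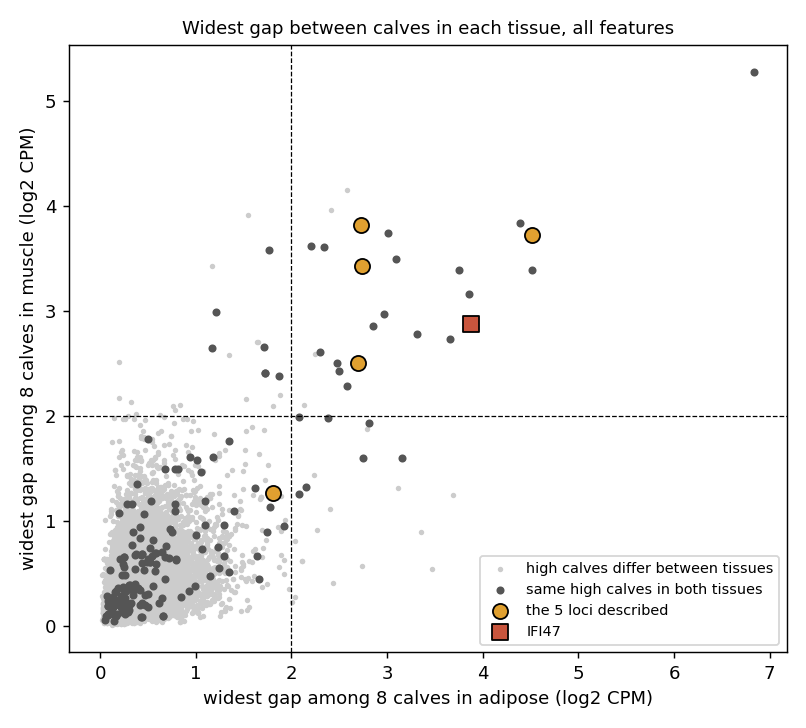
Widest gap between neighboring calves in log2(CPM + 0.1), adipose on the horizontal axis and muscle on the vertical axis, for the 17232 features considered, with dashed lines at the limit of 2. Dark points have the same high calves in both tissues, 4 of the 5 loci (gold) lie past both lines, ENSBTAG00000014707 lies at 1.8 and 1.27, and the square is IFI47 at 3.87 and 2.87.

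The 4 features past the limit in both tissues whose sets were not the same differed by 1 calf each, and at 2 of the 4 that calf was calf 2, as at ENSBTAG00000014707. Among the 22 features with the same calves, 1 had all 5-HTP-supplemented calves high and all CON calves low. This was IFI47 (ENSBTAG00000015727), an interferon gamma inducible GTPase, with 7.86 to 15.8 CPM in 5-HTP-supplemented calves and 0 to 0.444 CPM in CON calves in adipose, and with 2.33 to 12.1 CPM and 0 to 0.232 CPM in muscle. None of the 22 had all CON calves high and all 5-HTP-supplemented calves low.

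The members did not share their division with each other. No pair of members had identical or opposite sets, and the number of calves on the same side in adipose ranged from 1 of 8 (ENSBTAG00000014707 and ENSBTAG00000040367) to 6 of 8 (ENSBTAG00000014707 and ENSBTAG00000032150). Calf 7 was high at 4 of the 5 members in both tissues, every member but ENSBTAG00000014707. Calf 2 was high at 3 members in adipose and 2 in muscle, and the other 6 calves were high at 2 members in each tissue. These counts describe 5 selected loci. Among the 22 features divided alike, calves 2 and 3 were high more often than calf 7. The 22 features held 19 different high sets, 3 of which were held by more than 1 feature.

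**Figure D3:**
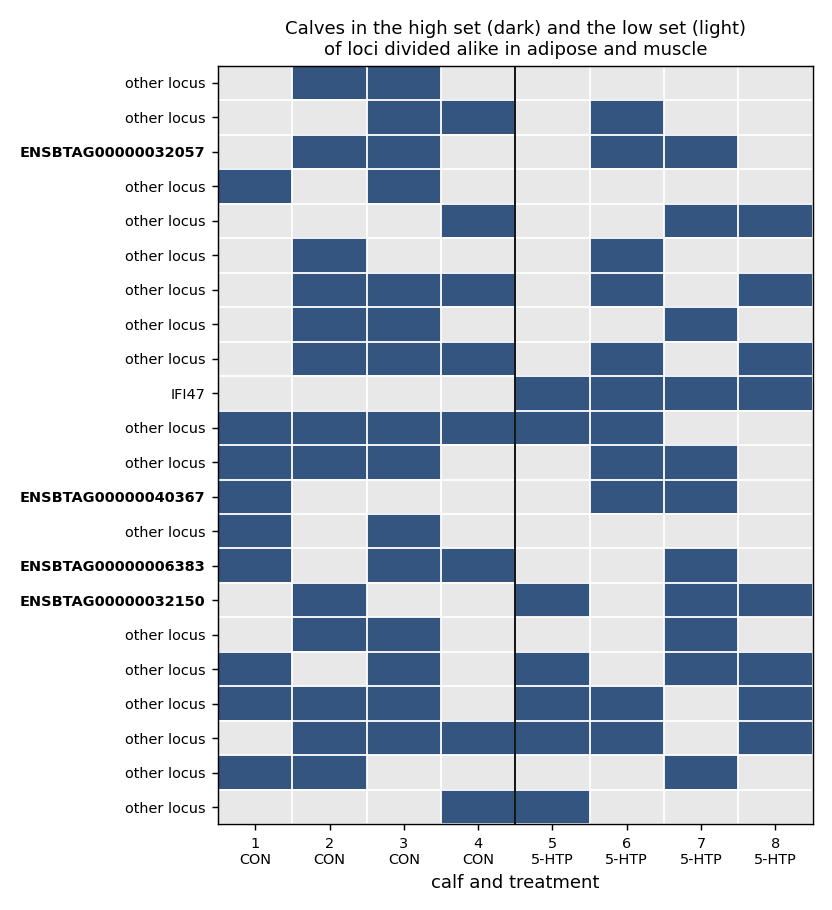
High (dark) and low (light) calves at each of the 22 loci divided alike in adipose and muscle with a gap of at least 2 log2 units, 1 row per locus and 1 column per calf, with a line between CON calves and 5-HTP-supplemented calves. The 4 loci described that met the limit are in bold, and only the row of IFI47 has all CON calves on one side and all 5-HTP-supplemented calves on the other.

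No member shared its division with those loci numbered near it that had enough counts. Of the 5 merged loci before and the 5 after each member, 50 in all, 27 had enough counts to be considered and 0 met the limit or had a member's high set in either tissue. The widest gap among these 27 was 1.07 log2 units in adipose and 1.53 in muscle. The loci directly before and after ENSBTAG00000032057, ENSBTAG00000006383 and ENSBTAG00000040367 had too few counts to be considered. The numbering is that of the merged annotation and was not checked against positions. Each member was also the only identifier on its merged locus, whereas 1166 merged loci list the same counts under more than 1 identifier.

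No other feature had the high sets of a member with a gap of at least 2 log2 units in both tissues. With a gap of at least 1, there were 2 such features, ENSBTAG00000012406 and ENSBTAG00000007554, both with the sets of ENSBTAG00000014707 in adipose and in muscle, and they were picked after their values were seen. ENSBTAG00000012406 had 8.97, 22.3, 11.8 and 13.4 CPM in adipose of the high calves 2, 4, 5 and 8, and 1.38 to 2.92 CPM in the others. Its muscle levels were 9.66, 7.77 and 7.32 CPM in calves 4, 5 and 8, 1.9 CPM in calf 2 and 0.22 to 1.13 CPM in the others. ENSBTAG00000007554 had 34.4, 106, 36.2 and 48.5 CPM in adipose of calves 2, 4, 5 and 8 against 8.75 to 13.4 CPM, and in muscle 58.1, 21 and 16.8 CPM in calves 4, 5 and 8 against 6.96 CPM in calf 2 and 2.4 to 7.75 CPM in the others. Calf 2 was thus on the high side in adipose and on the low side in muscle at all 3 loci, and at 2 of them its muscle level was the highest of the low side.

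The selection did not use the size of the difference between tissues, which was tested, but it required a high set in both tissues, so that a locus restricted to 1 tissue could not be a member. It also favored a wide spread between calves, with a median SD of 2.06 log2 units in adipose and 2.18 in muscle over the members against 0.4 and 0.36 over all features considered. With edgeR's quasi-likelihood test over all 16 libraries and treatment as a covariate, 14355 of 21349 features differed between adipose and muscle at an FDR of 0.05, which is 67.2%, with 7725 higher in adipose and 6630 lower. Of the 5 members 0 passed, and 0 had an unadjusted p under 0.05, the smallest being 0.0701, and the likelihood ratio test and DESeq2 also called 0 of 5. The logFC of adipose over muscle was 0.71 (SE 0.97) for ENSBTAG00000032057, 1.16 (SE 0.59) for ENSBTAG00000014707, 0.57 (SE 0.73) for ENSBTAG00000006383, 0.01 (SE 0.77) for ENSBTAG00000032150 and -0.53 (SE 0.91) for ENSBTAG00000040367. In this fit the difference between high and low calves counts as spread between replicates, and since the members were selected for that spread, nothing is read from their count against the 67.2% of all features.

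With calf as a block, adipose was compared with muscle within each calf, and 14044 of 21349 features (65.8%) differed at the same FDR. ENSBTAG00000014707 was higher in adipose by 1.14 log2 units (SE 0.22, edgeR FDR 0.000345), in 8 of 8 calves. ENSBTAG00000006383 was higher in adipose by 0.66 log2 units (SE 0.15, edgeR FDR 0.000932), also in 8 of 8 calves. ENSBTAG00000040367 was lower in adipose in 7 of 8 calves, with a logFC of -0.42 that missed the threshold (SE 0.2, edgeR FDR 0.074). The values for ENSBTAG00000032057 (0.38, SE 0.25, edgeR FDR 0.205) and ENSBTAG00000032150 (-0.01, SE 0.27, edgeR FDR 0.965) did not pass either. Leaving out each calf in turn kept both calls in all 8 blocked fits, and without calf 2 ENSBTAG00000040367 passed as well (-0.53, edgeR FDR 0.0142).

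The tissue difference depends on the scaling between the tissues. The 10 features with the most counts took 5.39% to 7.53% of an adipose library and 19.1% to 24% of a muscle library, and the TMM factors were 1.39 to 1.61 in adipose and 0.534 to 0.719 in muscle. The adipose library of calf 2 had the highest such share in adipose (7.53%), the lowest TMM factor in adipose (1.39) and the smallest total of all 16 libraries. Its muscle library had the lowest share in muscle (19.1%). Whether this bears on the ratios of calf 2 between tissues was not tested. The median logFC of all features was 0.16 with TMM and 1.35 on library totals, where 15772 features were higher in adipose and 2564 lower. On library totals, 18336 of 21349 features passed without the block and 18009 with it, among them 2 and 5 members. Most features passed on this scale, so nothing is read from the number of members. The logFC of ENSBTAG00000040367 turned to 0.81 without the block and 0.79 with it. Relative to the median of all features, ENSBTAG00000014707 stood at 0.98 in the blocked fit under both scalings, ENSBTAG00000006383 at 0.51 and 0.52, and ENSBTAG00000040367 at -0.58 and -0.56.

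**Figure D4:**
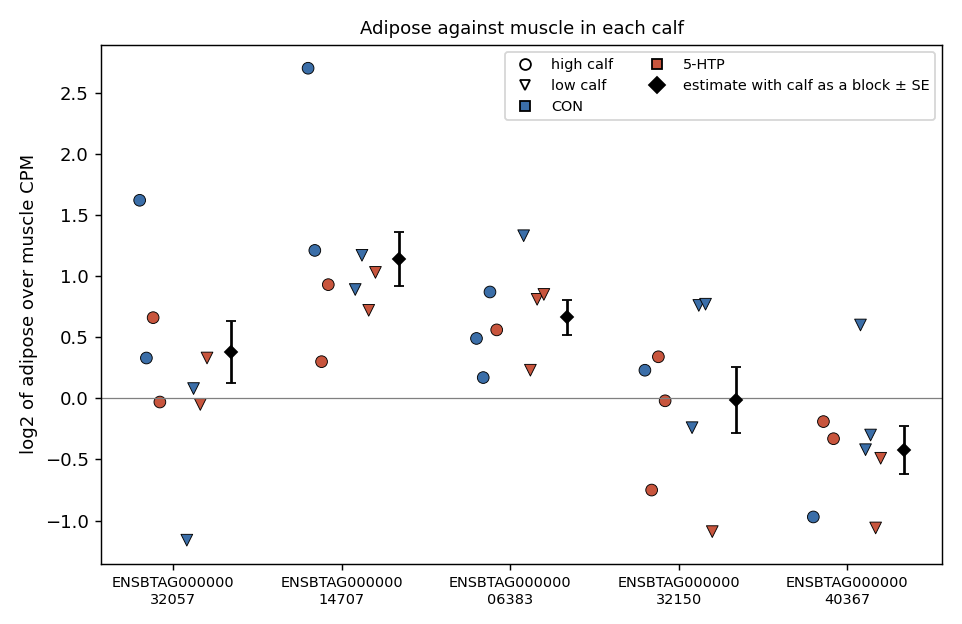
Log2 of adipose over muscle CPM in each calf (circles for high calves and triangles for low calves of adipose, color for treatment), with the estimate of the fit with calf as a block and its SE (black diamond), for the 5 loci. All 8 calves lie above 0 at ENSBTAG00000014707 and ENSBTAG00000006383, and calf 2 is the uppermost point at 4 of the 5 loci, all but ENSBTAG00000032150.

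High and low calves were also compared in their ratio between tissues. At ENSBTAG00000006383 the log2 ratio of adipose over muscle was 0.17 to 0.87 in the high calves and 0.23 to 1.33 in the low calves. For ENSBTAG00000032150 these ranges were -0.75 to 0.34 and -1.09 to 0.77, and for ENSBTAG00000040367 -0.97 to -0.19 and -1.06 to 0.6. At ENSBTAG00000032057 the high calves ranged from -0.03 to 1.62 and the low calves from -1.16 to 0.33, the low values resting on 3 to 17 counts a library. At ENSBTAG00000014707 calf 2 had the widest ratio, 2.7, against 0.3 to 1.21 in the other 7 calves. The ranges of high and low calves overlapped at all 5 loci, and their difference was not tested.

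The order of the calves inside a high set was not the same in both tissues at any of the 5 loci. At ENSBTAG00000032057 calf 6 was the highest in both tissues, with calves 2, 7 and 3 after it in adipose and calves 7, 3 and 2 in muscle. At ENSBTAG00000040367 the order was calves 7, 6 and 1 in adipose and calves 1, 7 and 6 in muscle. Some places were kept in both tissues, with calf 4 highest at ENSBTAG00000014707 and calf 8 lowest at ENSBTAG00000032150. Calf 3 was the lowest high calf at ENSBTAG00000006383 in adipose, but the muscle levels of calves 3, 4 and 7 there were too close to order. The order was not tested.

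For 5-HTP supplementation, the likelihood ratio test of edgeR at an FDR of 0.20 called 22 of 20167 features in adipose (0.109%) and 34 of 16878 in muscle (0.201%). The quasi-likelihood test called 1 in each tissue, and 889 features in adipose and 815 in muscle had an unadjusted p under 0.05 in the likelihood ratio test. The likelihood ratio test and the quasi-likelihood test called 0 members in either tissue, DESeq2 also called 0 but gave no p for ENSBTAG00000006383 in muscle, and 0 members had an unadjusted p under 0.05 in the likelihood ratio test. Nothing is read from this, since the members were selected for not following treatment. Their logFC of 5-HTP over CON was -1.42 (SE 0.89) in adipose and -1.43 (SE 0.9) in muscle at ENSBTAG00000006383, where 3 of 4 CON calves were high. It was 0.6 (SE 1.01) and 1.1 (SE 0.96) at ENSBTAG00000032150, and 1.17 (SE 1.12) and 0.68 (SE 1.11) at ENSBTAG00000040367. At ENSBTAG00000032057 it was 0.12 (SE 1.3) and 0.76 (SE 1.11), and at ENSBTAG00000014707 -0.71 (SE 0.78) and 0.27 (SE 0.74).

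At 3 members a treatment group had a lone high calf in both tissues, and the size of this difference turned on that calf. Without calf 7, the only 5-HTP-supplemented calf on the high side, the logFC of ENSBTAG00000006383 was -3.68 in adipose and -3.74 in muscle. Without calf 2, the only CON calf on the high side, that of ENSBTAG00000032150 was 3.11 in adipose and 3.88 in muscle. Without calf 1, also the only CON calf on the high side, that of ENSBTAG00000040367 was 3.15 in adipose and 3.6 in muscle. The first 2 loci then came under the FDR of 0.20 in both tissues and the third in neither. These values follow from the division by which the loci were selected, once the calf that crosses the treatment groups is taken away, and are no evidence on treatment. The other 2 members also moved with 1 calf left out. At ENSBTAG00000032057 in adipose the logFC was -1 without calf 6 and 1.3 without calf 2. At ENSBTAG00000014707 in muscle it was 1.42 without calf 4, the only CON calf on the high side there.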

How the data were processed

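Subcutaneous adipose and gluteus medius muscle of 8 calves gave 16 libraries, whose tissue and treatment come from the labels. After trimming with Trim Galore 0.4.4, the authors aligned the reads to ARS-UCD1.2 (Hisat2), built and joined transcript models (Cufflinks 2.2.1) and assigned uniquely mapped reads to genes (htseq-count). The deposited tables hold raw counts, 44265 features a library. Reads of near-identical copies could be missing from unique mapping, and strand-specific counting is not given in the sources used here. Nothing was pooled over calves, and replicate libraries of a group differed beyond sampling noise (chi-square divided by its degrees of freedom 21.8 or more in 24 pairs). The members, the lists and the tests were chosen with earlier results of these data known.

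The tests ran in edgeR 4.0.16 (R 4.3.3, limma 3.58.1), DESeq2 1.42.0 was an alternative, and plots were drawn in Python 3.11.15. A feature was tested where 4 or more libraries of 1 tissue had 10 or more counts, with TMM and Benjamini-Hochberg adjustment over all features tested. The steps were tested on simulated counts. The pseudocount was 0.1 CPM, and fold changes and gaps of low levels are understated on that scale. The features named are the 5 members, loci with a member's high sets, numbered neighbors that met the limit (0 did) and IFI47. TTN, IGFN1 and IFI47 carry the identifiers that the paper gives. The reference gene table matched 0 identifiers, so planned marker lists by symbol were not run.

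Libraries were paired by calf number, since both tissues came from the same 8 calves and the number goes with the same treatment in both. The labels do not say that the number is the calf. Deviations from the group means over 15696 features correlated between the tissues at -0.171 for calf 1, -0.0312 for calf 2 and 0.104 to 0.258 for the other 6 calves, so not every pair exceeded 0.1. Within their treatment group, calves 1 and 2 did not correlate best with their own number, whereas the other 6 did. Without the members and the loci divided alike, calf 8 fell to 0.0909, and 5 pairs exceeded 0.1. Of the 22 features other than members with a gap of at least 2 log2 units in both tissues, 18 divided the same 8 calves, and 10 of the 14 that put calves 1 and 2 on different sides did so. The pairing was settled after the fits with the calf as a block had been seen, and the fit without the block is the main one.

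Levels were scaled over all 16 libraries, so that tissues compare, a choice made after the data were seen.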

Additional observations from a re-analysis of the deposited data

Results flagged for a closer look

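In 7 of the 20 groups of 4 libraries checked (5 loci, both tissues, both treatments), 1 calf stood far from the other 3, by a gap that took up more of the group's range than Dixon's 95% critical value allows. For normally distributed values, chance flags about 1 in 20 such groups. The check used CPM without logs, and the loci were selected for divided levels. That rate is therefore no yardstick here, and the number of flags is a description. At ENSBTAG00000006383 these were the 5-HTP-supplemented calf 7, with 148 CPM in adipose (nearest other calf 10.5) and 101 CPM in muscle (nearest 7.04), and the CON calf 2 with 6.75 CPM in muscle (nearest 101). At ENSBTAG00000032150 it was the CON calf 2, with 8.77 CPM in adipose (nearest 0.584) and 7.43 CPM in muscle (nearest 0.366). At ENSBTAG00000040367 it was the CON calf 1, with 16.4 CPM in adipose (nearest 2.37) and 32.2 CPM in muscle (nearest 1.53). In 6 of the 7 groups the flagged calf was the lone high calf of its treatment group, and in 1 it was the lone low calf. All 3 calves stood on the same side of the gap in the other tissue.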

How the results depend on the processing

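The number of features divided alike in both tissues was 22, and it was 44 with a gap of at least 1, 8 with a gap of at least 3 and 6 with a pseudocount of 1 CPM, where 4, 1 and 3 members met the limit. Leaving out each calf in turn gave 21 to 23 features, 4 members among them each time. Every member had more than the minimum of 2 calves in each set, so leaving out 1 calf could not narrow its gap. That the 4 members stayed past the limit is therefore no result. Scaling with TMM within each tissue, added after the data were seen, also gave 22, of which 21 were shared. The 5 members kept the same high calves in every setting run that held all 8 calves. With a pseudocount of 1 CPM the gaps of ENSBTAG00000032057 fell to 3.26 in adipose and 2.65 in muscle, and those of ENSBTAG00000032150 to 1.75 and 1.67, under the limit of 2. With 1 calf left out, a member's gap grew by over 1.5 times only at ENSBTAG00000014707 in muscle (1.27 to 2.27 without calf 2). The next largest move was 2.74 to 4.04 at ENSBTAG00000040367 in adipose without calf 2. The features called for 5-HTP numbered 22 in adipose and 34 in muscle with the likelihood ratio test and 1 in each with the quasi-likelihood test, and leaving out each calf gave 4 to 56 in adipose and 13 to 188 in muscle. The cause was not tested.

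With calf number as a replicate block, 14044 features differed between tissues against 14355 without it, and the members called rose from 0 to 2. The logFC of ENSBTAG00000032150, near 0, turned from 0.015 to -0.015 with the block. In the fits without the block, leaving out each calf in turn gave -0.073 (without calf 7) to 0.201 (without calf 5). Without calves 3 and 4 these values were -0.022 and -0.028. In the fits with the block the range was -0.116 (without calf 4) to 0.132 (without calf 5). None of these values passed the threshold. The logFC of ENSBTAG00000040367 turned from -0.53 to 0.81 on library totals and to 0.79 on library totals with the block, settings added after the data were seen. Counts of 3 to 17 a library limit the low levels of ENSBTAG00000032057 and ENSBTAG00000032150.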
